A study of Mus musculus with 8 samples.

Results

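The genes described here encode proteins of megakaryocytes and of the platelets they shed. The list held 32 gene symbols, of which 29 had a probe set annotated to that symbol alone, out of 18194 genes measured. Where a gene had several probe sets, the brightest of them across the 8 arrays stood for it. Gp1ba, Bin2 and Ptgs1 had no such probe set and were not analysed here. The list was drawn up with the difference between the groups already known, so the differences of its members are given as a description and none of them is put forward as a test result.

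Megakaryocytes are large polyploid blood cells that extend proplatelets into vessels and release platelets from them. Platelets carry alpha granules loaded with chemokines and adhesive proteins, and surface receptors for von Willebrand factor, collagen, fibrinogen, ADP and thrombin, whose signals converge on the activation of the integrin αIIbβ3. In the mouse embryo the first megakaryocytes arise from the yolk sac, and large young platelets circulate before the liver becomes the main site of their production. A dissected mandibular arch, the embryonic forerunner of the lower jaw, holds blood in its vessels.

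The tissue was the mandibular arch of C57BL/6J embryos at embryonic day 11.5, with sex not determined, and its total RNA was measured on Affymetrix arrays as log2 values per probe set. The mutants carried Wnt1-Cre and floxed Alk5 alleles (Alk5 fl/fl; Wnt1-Cre, n = 4), and the controls carried the floxed alleles with no Cre named in their labels (Alk5 fl/fl, n = 4). Wnt1-Cre acts in the neural crest and dorsal neural tube. The crest gives rise to most mesenchyme of the arch and not to blood, and Alk5, or Tgfbr1, is the type I receptor for TGF-beta. The comparison asked how the loss of Alk5 from crest cells affected the arch, and in this design the driver and the loss cannot be told apart. The labels do not say that each array came from a different embryo or litter, so the spread between arrays may be partly technical.

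Tgfbr1 itself read 12.97, 12.99, 12.98 and 12.99 in mutants and 12.82, 12.71, 12.90 and 12.73 in controls (log2 value), and the probe set is not known here to lie in the deleted part, so it does not check the labels. Array medians ran from 6.28 to 6.42 on the log2 scale. The array of mutant 3 had the narrowest values, with an SD of 2.42, while the SDs of the remaining 7 lay from 2.52 to 2.56. Counts of members called or without overlap are given with and without it. The differences of single members are given with it. It read higher than the other mutants on 56.8% of the genes below the median level of all genes and on 7.28% of those above it. Of the members, 20 lay below that median.

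The promoters of 4 genes are printed to show the DNA in front of members on which the result turns. Pf4, Ppbp and Tubb1 are 3 of the 4 members past the threshold described below, and Gp5 stands beside them as a receptor gene whose groups overlapped. The sequences are the 250 bases before the transcription start in RefSeq (GRCm38.p6), 5′ to 3′ on the strand of the gene. Capitals mark GATA and ETS words, searched on both strands. The GATA words were AGATAA and, with another first base, TGATAA. The ETS words were CCGGAA, the longer word ACTTCCG, and the word AGGAAG. The first of these and the reverse complement of the longer word overlap in part. GATA1 and ETS proteins such as Fli1 are transcription factors known to bind megakaryocyte genes.
Pf4 (chr5:90772185-90772434, plus strand): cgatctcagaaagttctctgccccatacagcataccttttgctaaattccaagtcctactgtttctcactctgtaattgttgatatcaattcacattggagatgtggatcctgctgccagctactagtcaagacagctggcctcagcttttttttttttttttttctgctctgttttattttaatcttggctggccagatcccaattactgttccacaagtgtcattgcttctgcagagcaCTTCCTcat
Ppbp (chr5:90768268-90768517, plus strand): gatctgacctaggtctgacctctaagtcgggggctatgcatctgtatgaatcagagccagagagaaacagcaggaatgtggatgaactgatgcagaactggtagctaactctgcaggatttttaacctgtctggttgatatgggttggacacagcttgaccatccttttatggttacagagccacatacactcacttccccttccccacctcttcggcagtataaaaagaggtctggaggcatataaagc
Tubb1 (chr2:174450345-174450594, plus strand): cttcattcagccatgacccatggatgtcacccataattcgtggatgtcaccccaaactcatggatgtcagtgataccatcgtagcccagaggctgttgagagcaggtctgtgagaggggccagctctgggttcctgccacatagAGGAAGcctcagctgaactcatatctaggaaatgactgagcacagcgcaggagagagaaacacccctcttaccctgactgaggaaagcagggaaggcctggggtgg
Gp5 (chr16:30310782-30311031, minus strand): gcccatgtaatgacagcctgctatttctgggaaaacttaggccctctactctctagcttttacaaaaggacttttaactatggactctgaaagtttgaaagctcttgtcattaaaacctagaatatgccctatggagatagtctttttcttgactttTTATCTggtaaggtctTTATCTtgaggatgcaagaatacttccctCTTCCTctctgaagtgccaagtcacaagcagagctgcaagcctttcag

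Pf4 held 1 ETS word on the opposite strand, 9 to 4 bases before the start, and no GATA word. Tubb1 held 1 ETS word, 106 to 101 bases before the start, and Ppbp held none of the words in this window. Gp5 held AGATAA on the opposite strand at 93 to 88 and at 77 to 72 bases before the start, and AGGAAG on the opposite strand at 48 to 43. Gp5 does not stand for all receptor genes whose groups overlapped. Of these, Gp9 and Itga2b held no GATA word, and Gp6 and Clec1b held 1 each. The promoter table covered 27 of the 32 listed genes with 29 windows. A GATA word was found in 9 of those 29 windows (31.0%), against 16.6% of all 32851 promoter windows of the same length. An ETS word was found in 15 of the 29 (51.7%), against 39.2% of all windows. Both kinds stood together in 4 of the 29 (13.8%), against 5.55% of all windows. These are matches of letters and no measure of binding.

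Platelet genes read lower in mutant arches for the most part, by small amounts, and in a few of them the groups were clear of each other. Of the 29 measured members, 25 had a log2 fold change below 0 and 4 above it, with a median of -0.21, whereas the median over all genes was -0.01. Without mutant 3, 26 of the 29 were below 0. In the fit across all genes, 4 members were lower at an adjusted p under 0.05 and 0 were higher, beside 1.31% of all genes lower and 0.835% higher. At an unadjusted p under 0.05 in limma, 12 members were lower and 1 was higher, beside 1628 lower and 822 higher of all 18194 genes. The 4 past the adjusted threshold were Pf4, Ppbp, Tubb1 and Rgs18. In 6 members every mutant array read below every control array, beside 7.02% of all genes, and Itgb3 and Plek were the others of the 6. In 1 member, P2ry12, every mutant array read above every control array, beside 3.27% of all genes. The members were picked knowing this contrast, so nothing is read from these counts. In whole tissue, fewer cells of a type and less RNA per cell cannot be told apart.

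**Figure D1:**
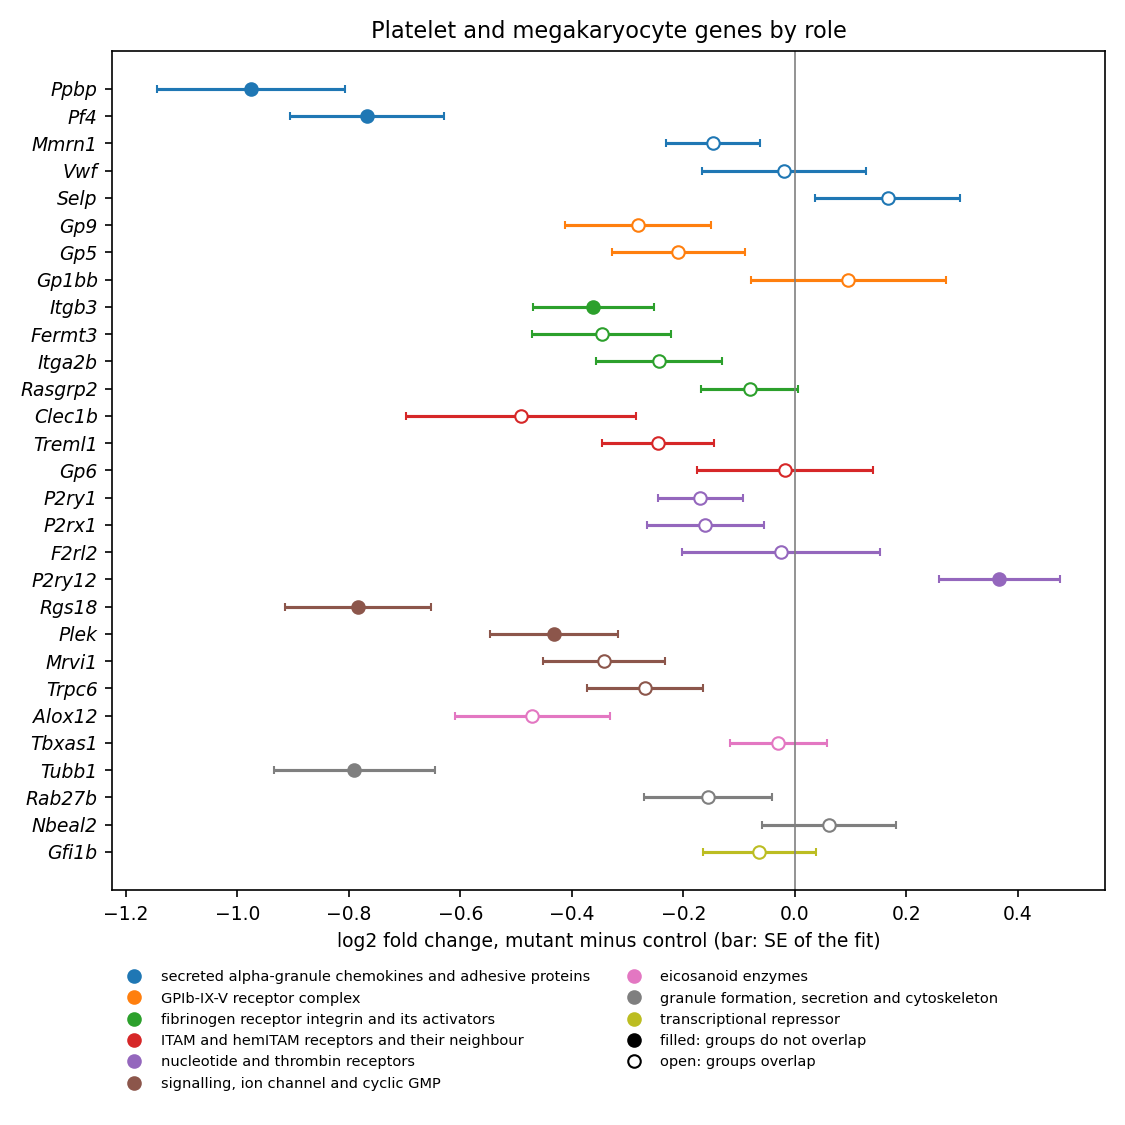
Log2 fold change of each of the 29 measured members, mutant minus control, on the horizontal axis, with genes down the page grouped by role; bars are the SE of the fit, filled points have groups that do not overlap. Ppbp, Tubb1, Rgs18 and Pf4 lie between -0.97 and -0.77, P2ry12 lies at 0.37, and most other members lie between -0.5 and 0.

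The alpha granule proteins split. Pf4 encodes platelet factor 4, a CXC chemokine stored in alpha granules, and Ppbp encodes the precursor of another such chemokine that attracts neutrophils once cleaved. In the RefSeq table they are neighbours on chromosome 5, with no protein-coding gene between them. Pf4 read 9.50, 9.52, 9.93 and 9.87 in mutants and 10.23, 10.49, 10.76 and 10.41 in controls (log2 value, replicates 1 to 4). The groups did not overlap, mutants 1 and 2 were the lowest arrays and control 3 the highest, and the difference was -0.77 ± 0.138 on the log2 scale (± SE), or 1.70-fold lower in the mutants. Ppbp read 8.67, 8.55, 8.86 and 8.57 in mutants and 9.26, 9.74, 10.11 and 9.42 in controls. Again the groups were apart and control 3 was highest, and Ppbp had the largest difference of the members at -0.97 ± 0.169, or 1.97-fold lower.

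The 3 measured adhesive proteins of these granules on the member list did not share this difference in size. Thbs1, thrombospondin 1, was kept in a further list, differed by -0.97 ± 0.216 (± SE) and is described with that list. Vwf, the factor that tethers platelets to collagen and is also made by endothelium, read 6.09 ± 0.269 in mutants and 6.11 ± 0.212 in controls (SD, n = 4 each). Mmrn1, multimerin 1, a carrier of factor V that endothelium also makes, differed by -0.15 ± 0.0846 (± SE). Selp, the P-selectin that binds leukocytes and is stored in endothelium too, differed by 0.17 ± 0.13. All 3 are shared with endothelium, and all 3 had overlapping groups. The endothelial markers had a median of -0.06 over 23 measured, and their summed level lay between 12.89 and 13.23 in mutants and between 13.04 and 13.16 in controls (log2 of the sum of linear values). Of these markers 1 fell, Erg, an ETS factor of endothelium (-0.67 ± 0.14, limma adjusted p = 0.0449). Over the mean of its probe sets Erg changed by only -0.33 and did not pass. Over the alternatives its adjusted p lay between 0.00832 and 0.163, and it did not pass without mutant 1 or 4, or without control 1, 2 or 3.

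**Figure D2:**
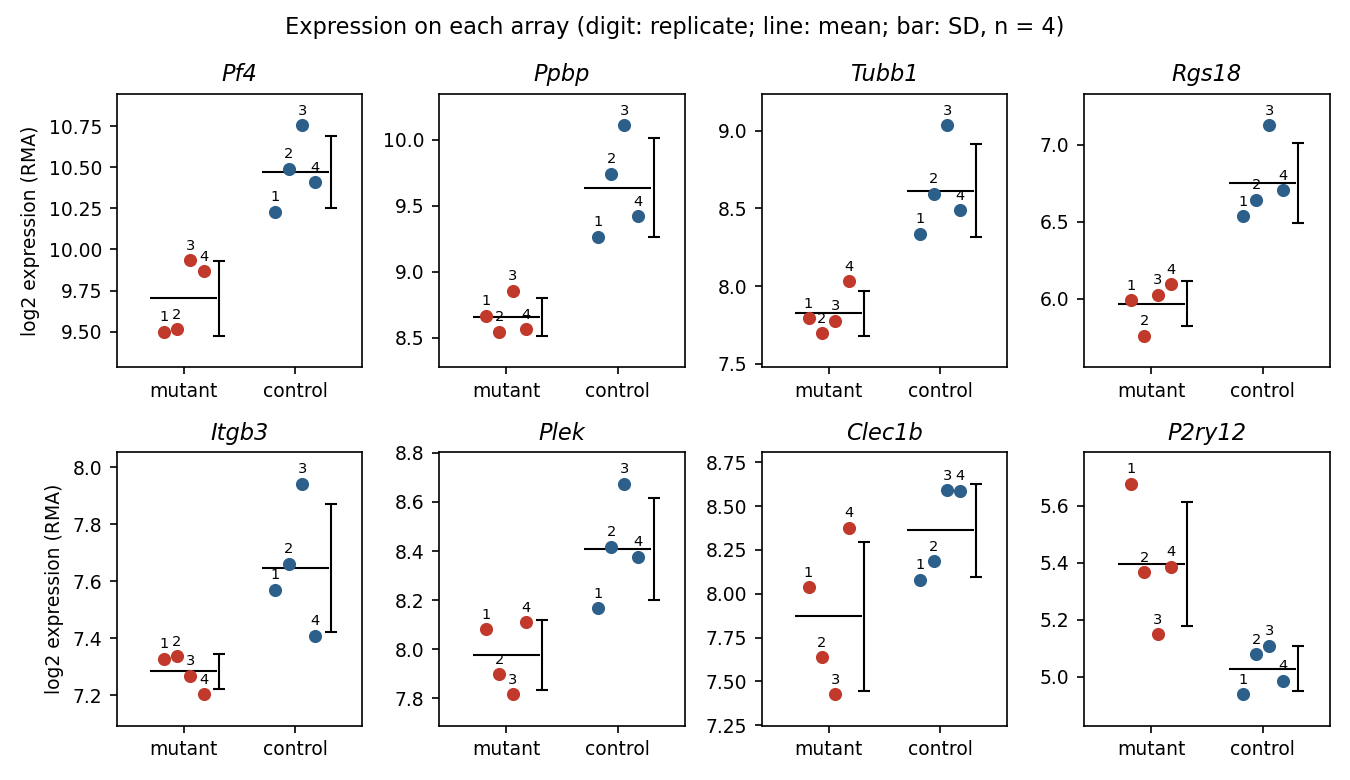
Log2 expression on each array for 8 members, with mutants left and controls right in each panel; digits are replicate numbers, lines are means and bars are SD (n = 4). The groups are apart for Pf4, Ppbp, Tubb1, Rgs18, Itgb3 and Plek, with control 3 highest in each, they overlap for Clec1b, and the mutants lie above the controls for P2ry12.

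Tubb1 encodes the beta tubulin of the microtubule coil that gives platelets their disc shape. It read 7.79, 7.70, 7.78 and 8.03 in mutants and 8.34, 8.59, 9.04 and 8.49 in controls. The highest mutant lay below the lowest control, and the difference was -0.79 ± 0.144 (± SE), or 1.73-fold lower in the mutants. Rab27b, a small GTPase that docks granules for secretion, differed by only -0.16 ± 0.115 on its brightest probe set, whose groups overlapped. Its 3 other probe sets were dimmer, were apart between the groups and differed by -0.43 ± 0.124, -0.65 ± 0.146 and -0.38 ± 0.101, and the mean of all its probe sets differed by -0.40. Nbeal2, which alpha granule formation requires, read 5.43 ± 0.212 in mutants and 5.37 ± 0.16 in controls (SD, n = 4 each). Mutant 3 was the highest mutant for Nbeal2, at 5.68.

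Rgs18, a regulator that shortens G protein signalling in platelets and is also found in some leukocytes, read 5.99, 5.76, 6.03 and 6.09 in mutants and 6.54, 6.64, 7.13 and 6.70 in controls. The groups did not overlap, and the difference was -0.78 ± 0.131 (± SE), or 1.72-fold lower in the mutants. Its second probe set differed by -1.16 ± 0.178 and was apart as well. Plek, pleckstrin, the main substrate of protein kinase C in platelets and present in other blood cells, read 8.08, 7.90, 7.82 and 8.11 in mutants and 8.17, 8.42, 8.67 and 8.38 in controls. Here the gap between the groups was narrow, mutant 4 and control 1 being the nearest arrays, with a difference of -0.43 ± 0.115. Of its other probe sets, one differed by -0.51 ± 0.172 with overlapping groups and the dimmest averaged 6.20 in mutants and 6.20 in controls. Mrvi1, a target of cyclic GMP-dependent kinase in platelets and smooth muscle, differed by -0.34 ± 0.109, and Trpc6, a calcium-permeable channel of many cell types, by -0.27 ± 0.104 at a level of 3.66 in mutants and 3.93 in controls.

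The receptors of platelets had smaller differences than the granule chemokines on their brightest probe sets. Itgb3, the β3 chain of the fibrinogen receptor, read 7.33, 7.34, 7.27 and 7.20 in mutants and 7.57, 7.66, 7.94 and 7.41 in controls. Its groups were apart, with a difference of -0.36 ± 0.109 (± SE), although the dimmer second probe set differed by -0.04 ± 0.152. Itga2b, the αIIb chain that marks the megakaryocyte lineage, read 8.39, 8.42, 8.86 and 8.39 in mutants and 8.65, 8.80, 8.80 and 8.79 in controls. Mutant 3 lay above every control and the other mutants below every control. The difference was -0.24 ± 0.113. Fermt3, kindlin-3, which activates integrins in platelets and leukocytes, differed by -0.35 ± 0.125, but 2 of its 3 other probe sets differed with the opposite sign, and the mean of all of them by -0.06. Rasgrp2, the exchange factor that activates Rap1 ahead of the integrin, differed by -0.08 ± 0.0874. Over all members, 16 of 22 probe sets other than the brightest had the sign of the brightest.

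The GPIb-IX-V complex binds von Willebrand factor under flow. Gp9 read 7.12, 7.22, 7.66 and 7.16 in mutants and 7.45, 7.57, 7.79 and 7.47 in controls. As with Itga2b, mutant 3 overlapped the controls and the other mutants did not. Gp9 differed by -0.28 ± 0.13 (± SE) and Gp5 by -0.21 ± 0.119. Gp1bb gave opposite readings: its brightest probe set differed by 0.10 ± 0.175, and its second by -0.83 ± 0.118 with the groups apart. On the brightest, mutant 3 read 7.63 and the other mutants 6.80, 6.74 and 6.97, against 6.89 to 7.05 in controls. A further probe set, annotated to both Septin5 and Gp1bb, was not used. Over the mean of its probe sets Gp1bb differed by -0.36.

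Among the receptors that signal through tyrosine motifs, Clec1b (CLEC-2, the receptor for podoplanin) read 8.04, 7.64, 7.43 and 8.38 in mutants and 8.08, 8.19, 8.59 and 8.59 in controls. Mutant 4 lay within the controls, and the difference of -0.49 ± 0.206 (± SE) had the largest error of the 29. Treml1, a receptor of alpha granule membranes, differed by -0.25 ± 0.1, and Gp6, the collagen receptor, by -0.02 ± 0.158. Gp6 read 6.49 in mutant 3 and 5.65, 5.84 and 5.92 in the other mutants. The podoplanin gene was in a list of platelet ligands and vessel wall partners, of which 0 of 17 measured passed in the limma fit (1 at an unadjusted p under 0.05). The smallest p in it belonged to Thbd, thrombomodulin (-0.35 ± 0.123, limma adjusted p = 0.234), and Lama4, a laminin chain of vessel walls (-0.33 ± 0.157, adjusted p = 0.409).

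P2ry12 ran the other way. It encodes the ADP receptor on which clopidogrel acts, and it is also a marker of microglia. It read 5.68, 5.37, 5.15 and 5.39 in mutants and 4.94, 5.08, 5.11 and 4.99 in controls. These readings of its only probe set were dim, below all array medians (6.28 to 6.42), and detection calls were not used. The groups were just apart, with mutant 3 and control 3 the nearest arrays, and the difference was 0.37 ± 0.108 (± SE). The other ADP receptor, P2ry1, differed by -0.17 ± 0.0761, the ATP-gated channel P2rx1 by -0.16 ± 0.105, and the thrombin receptor family member F2rl2 by -0.02 ± 0.178, all with overlapping groups. F2rl2 read 5.80 in mutant 3 and 4.97, 4.92 and 5.10 in the other mutants. In the same mutant arrays macrophage markers were higher. Of 23 measured, 11 rose and 0 fell in the limma fit (17 higher and 0 lower at an unadjusted p under 0.05), with a median of 0.68, and their summed level lay between 12.74 and 13.23 in mutants and between 12.10 and 12.18 in controls. The largest rises were Mpeg1 (1.67 ± 0.13, limma adjusted p = 8.21e-04) and the complement genes C1qb (1.54 ± 0.149, adjusted p = 0.00195), C1qc (1.52 ± 0.149, adjusted p = 0.00201) and C1qa (1.40 ± 0.131, adjusted p = 0.0016). The part of macrophages in the P2ry12 reading was not tested.

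The eicosanoid enzymes were represented by 2 genes. Alox12, the platelet 12-lipoxygenase, read 6.93, 6.59, 6.79 and 6.59 in mutants and 6.90, 7.32, 7.51 and 7.06 in controls. Control 1 lay among the mutants and the other controls above all of them, with a difference of -0.47 ± 0.139 (± SE). Tbxas1, thromboxane synthase, which macrophages also express, differed by -0.03 ± 0.0866. Gfi1b, the repressor required for both megakaryocytes and erythroid cells, read 7.08 ± 0.183 in mutants and 7.14 ± 0.105 in controls (SD, n = 4 each).

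Sorted by how widely they are expressed, the 13 measured members placed as largely of the megakaryocyte lineage had a median of -0.25. That placing is loose, since Gfi1b also acts in erythroid cells and Itgb3 is not confined to the lineage. The 6 that are also found outside blood had a median of -0.22 and the 7 shared with leukocytes a median of -0.16, and the 3 shared with endothelium had a median of -0.02. Of the 6 members lower without overlap (beside 7.02% of all genes), 4 were among the 13, Itgb3 included. The other 2 were among the 7 shared with leukocytes, which also held P2ry12. The summed level of all members lay between 12.15 and 12.36 in mutants and between 12.51 and 12.95 in controls. This sum gives most weight to bright probe sets.

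**Figure D3:**
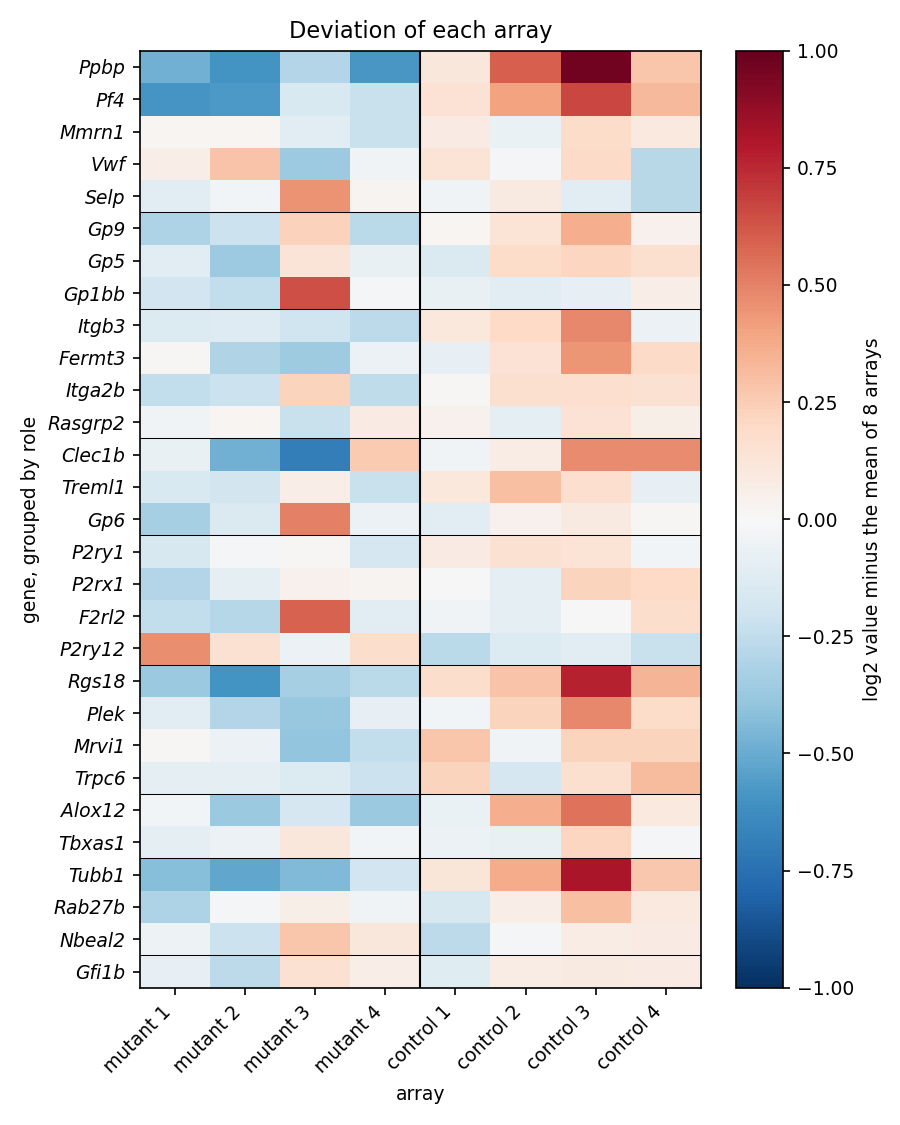
Log2 value of each member on each array minus its mean over the 8 arrays, as colour, with arrays across (mutants left, controls right of the line) and genes down the page grouped by role. Control 3 is the deepest red column on Ppbp, Tubb1, Rgs18 and Pf4, and mutant 3 is red on Gp1bb, F2rl2, Gp6, Selp and other dim members.

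The arrays of a group did not carry equal amounts of these transcripts. Control 3 was the highest control on 21 of the 29 members and the lowest on 0, and over all genes it was the highest control on 20.5%. Control 1 was the lowest control on 16 of the 29, against 30.2% of all genes. On the 6 members without overlap on the lower side, control 3 was the highest control in 6 and control 1 the lowest in 5. The median deviation of the members from their mean over all arrays was -0.11, -0.21, -0.06 and -0.08 in mutants 1 to 4 and -0.01, 0.08, 0.22 and 0.10 in controls 1 to 4. No mutant had a median above that of a control. Without control 3 the members' median change was -0.17, and 3 members were still lower at the threshold, the call of Pf4 being lost, beside 0.242% of all genes lower in that fit.

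Mutant 3 was the highest mutant on 16 of the 29 members, against 32.1% of all genes. It was so on 12 of the 20 members below the median level of all genes, where the share of all genes was 56.8%, and on 4 of the 9 above it, where that share was 7.28%. Without it, 10 members were lower with no overlap, beside 8.35% of all genes, and Itga2b, Gp9, Treml1 and F2rl2 joined the 6. P2ry12 was again the 1 member higher with no overlap, beside 8.41% of all genes. In the fit without it, 6 members were lower at the threshold (beside 1.59% of all genes), with Itga2b and Gp9 added, and P2ry12 was higher (beside 1.80% of all genes). Reading any probe set of a gene in place of the brightest, 9 members were lower without overlap on at least 1, beside 8.59% of all genes, with Gp1bb, Rab27b and Rasgrp2 added. Only P2ry12 was higher in that way, 1 member beside 4.77% of all genes. The counts of overlap without mutant 3 and over any probe set were chosen after seeing the data.

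The 4 calls depended on other arrays and on the normalization too. Of the 29 members in the limma fit, 0 passed without mutant 4 (11 at an unadjusted p under 0.05), beside 0.220% of all genes lower. Without control 2 also 0 passed (12 at an unadjusted p under 0.05), beside 0.247% of all genes lower. The shares of all genes at an unadjusted p are not given for these fits. Without mutant 1 only Rgs18 passed, beside 0.632% of all genes lower, and without mutant 2 only Ppbp and Rgs18, beside 1.28%. After quantile normalization Pf4 and Ppbp did not pass, while Rgs18 and Tubb1 did, beside 1.87% of all genes lower. The differences themselves stayed within -0.93 to -0.67 for Pf4, -1.16 to -0.82 for Ppbp, -0.91 to -0.65 for Tubb1 and -0.97 to -0.66 for Rgs18 over all alternatives that measured them.

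Erythroid cells share a progenitor with megakaryocytes and fill the same vessels. Of 19 erythroid markers measured, 0 passed in the limma fit (5 at an unadjusted p under 0.05, all lower in mutants), with a median of -0.13, and their summed level lay between 15.95 and 16.12 in mutants and between 16.04 and 16.19 in controls. The smallest p belonged to Trim10, a gene of late erythroid cells (-0.39 ± 0.116, adjusted p = 0.148), and Epb42, a protein of the red cell skeleton (-0.59 ± 0.199, adjusted p = 0.212). The embryonic globin genes, named here after their values were seen, did not pass. Hbb-y averaged 14.89 ± 0.0801 in mutants and 14.89 ± 0.0617 in controls (SD, n = 4 each), and Hba-x differed by -0.09 ± 0.0627 (± SE). Trim10 and Epb42 were highest in control 3, as were the 6 lower members without overlap. The summed level of all 19 erythroid markers was instead highest in control 4, at 16.19, with 16.13 in control 3. The part of blood content in the platelet readings was not tested.

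**Figure D4:**
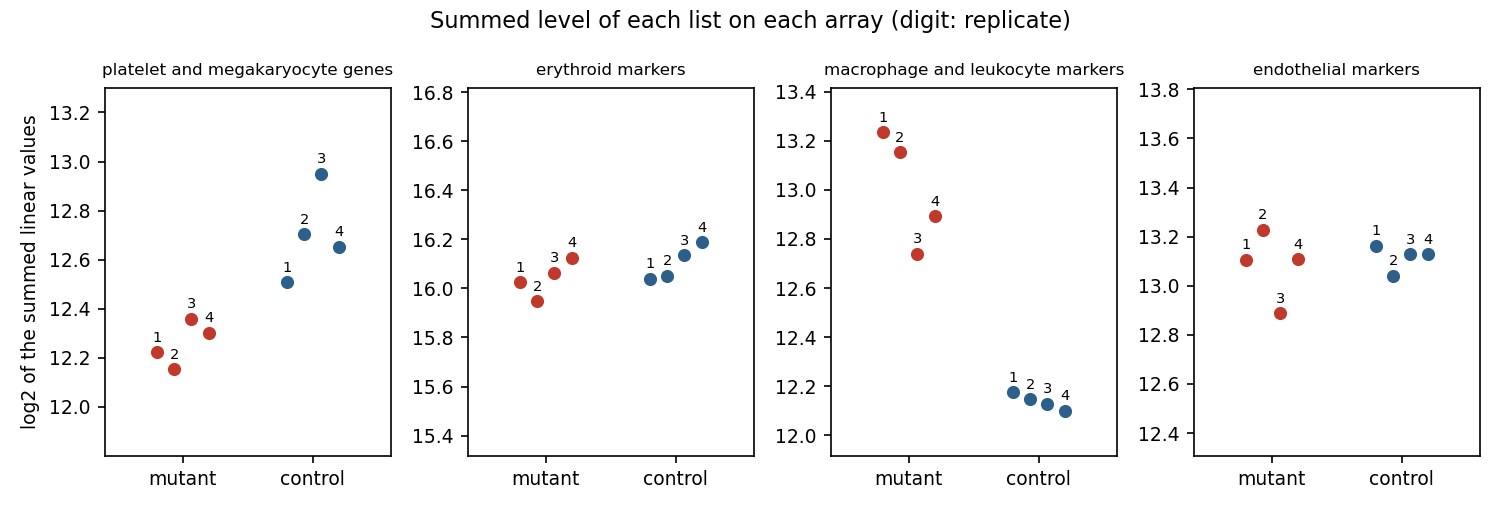
Log2 of the summed linear values of each of 4 lists on each array, with mutants left and controls right in each panel, all panels spanning the same range of log2 units and digits giving the replicate. The platelet sums of the mutants (12.15 to 12.36) lie below those of the controls (12.51 to 12.95), the erythroid and endothelial sums overlap, and the macrophage sums are higher in the mutants.

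Other genes of the platelet and megakaryocyte pathways, kept apart from the members, passed the threshold in both directions. Over 7 lists, 146 such genes were measured, of which 4 fell and 3 rose, and their median change was -0.05. None of those 4 falls passed without mutant 4 or without control 1, 2 or 3. Of 18 genes listed as transcription factors of megakaryocytes, 1 passed. That list did not hold the ETS factor Erg, counted above among the endothelial markers. Gata2, a factor of early progenitors that arch tissue and mast cells also express, rose by 1.31 ± 0.109 (limma adjusted p = 0.00101), and read 8.87, 8.83, 8.82 and 9.03 in mutants and 7.39, 7.61, 7.46 and 7.87 in controls. The remaining 17 did not pass, and the list's median was -0.02, with 9 genes below 0 and 9 above. At an unadjusted p under 0.05 in limma, 4 of the list were lower and 2 higher, Gata2 included. Over all 18194 genes 1628 were lower and 822 higher in that way. Among the 17, Meis1, a homeobox factor of progenitors and of many embryonic tissues, differed by 1.20 ± 0.264 with the groups apart (limma adjusted p = 0.0534), and it was named after its values were seen. The lowest change was that of Nfe2, at -0.45 ± 0.128 (limma adjusted p = 0.127), also named after its values were seen.

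Of 12 genes of thrombopoietin signalling, the cytokine feedback inhibitor gene Socs3 fell by 0.48 ± 0.104 (limma adjusted p = 0.0492) and 11 did not pass. The adjusted p of Socs3 lay between 0.0139 and 0.176 over the alternatives, and it did not pass without mutant 2 or 4 or without any 1 of the controls. Of 20 further receptors and adhesion proteins, Ptgir, the prostacyclin receptor that restrains platelets, fell by 0.36 ± 0.0738 (limma adjusted p = 0.0415). Over the alternatives that p lay between 0.00634 and 0.162, and Ptgir did not pass without mutant 1, 2 or 4 or without any 1 of the controls. Cd36, a thrombospondin and lipid receptor that macrophages express too, rose by 1.38 ± 0.17 (adjusted p = 0.00516). Of 30 signal transduction genes, 1 passed: Fcer1g, the signalling chain that Gp6 needs and that macrophages share, rose by 0.66 ± 0.0954 (adjusted p = 0.0105). Macrophage markers were higher in the same arrays, with a median of 0.68, and their part in the Cd36 and Fcer1g readings was not tested.

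Of 29 genes for granules and secretion, Rab27a, the GTPase that Rab27b resembles, fell by 0.59 ± 0.127 (limma adjusted p = 0.0499), and 22 of the 29 were below 0, with a median of -0.12. Over the mean of its probe sets Rab27a changed by only -0.25 and did not pass. Its adjusted p lay between 0.0261 and 0.163 over the alternatives, and it did not pass without mutant 1, 3 or 4 or without any 1 of the controls. Thbs1 had the lowest change of the list at -0.97 ± 0.216 but did not pass (limma adjusted p = 0.0559). It read 8.15 to 8.91 in mutants and 8.92 to 9.81 in controls, so the groups were just apart. It was named after its values were seen. Of 20 cytoskeletal genes, Tuba4a, an alpha tubulin that platelets carry in abundance, fell by 0.46 ± 0.0809 (adjusted p = 0.0228). Its readings ran from 9.50 to 9.68 in mutants and from 9.89 to 10.18 in controls, so the groups did not overlap, and control 3 was again the highest array. Over the mean of its probe sets Tuba4a changed by only -0.18 and did not pass. Its adjusted p lay between 0.00251 and 0.356 over the alternatives, and it did not pass without mutant 1, 2 or 4 or without control 1, 2 or 3.

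**Figure D5:**
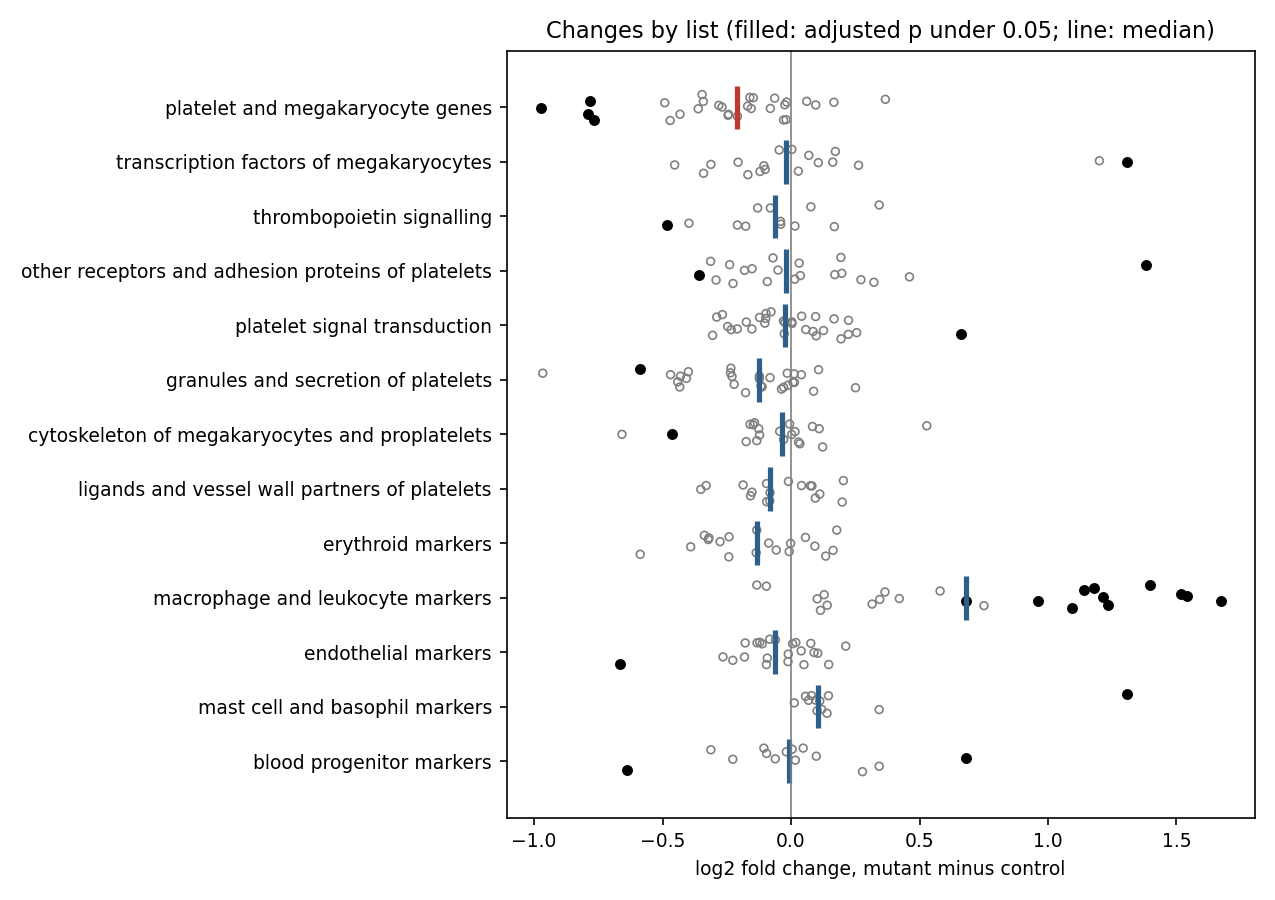
Log2 fold change, mutant minus control, of each measured gene in the member list and in 12 further lists, 1 point a gene; filled points passed at an adjusted p under 0.05 and vertical lines are medians. The members have a median of -0.21, the macrophage markers 0.68, and the other lists lie between -0.13 and 0.11.

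Markers of blood progenitors had a median of -0.01 over 14 measured, with Mllt3, a regulator of stem cell maintenance, lower (-0.64 ± 0.137, limma adjusted p = 0.0484) and Ptprc, the CD45 antigen of all leukocytes, higher (0.68 ± 0.133, adjusted p = 0.0353). The adjusted p lay between 0.00951 and 0.163 for Mllt3 and between 0.00536 and 0.132 for Ptprc over the alternatives. Over the mean of its probe sets Ptprc changed by only 0.39 (limma adjusted p = 0.0469). Mllt3 did not pass without mutant 1, 2 or 4 or without any 1 of the controls, and Ptprc did not pass without mutant 1, 2 or 4 or without control 1, 2 or 4. The 12 mast cell and basophil markers had a median of 0.11, and 1 of them rose, Gata2, which is not specific to these cells.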

How the data were processed

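The deposited log2 values per probe set were used as given. The authors' method was RMA, per the submitters' processing notes. It removes background, brings the arrays to 1 distribution and condenses probes to probe sets, and it shrinks differences where signal is dim. The deposited probe set values still differed between arrays in median (6.28 to 6.42) and in SD (2.42 to 2.56). The RMA version and genome build were not given in the sources used here. Detection calls were not used here.

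Of 45101 probe sets, 34958 had 1 gene symbol in the platform annotation, 932 several and 9211 none, and those of the last 2 kinds were not named. Each gene took its brightest probe set. The groups were compared over all 18194 genes with limma 3.58.1 in R 4.3.3 (lmFit, eBayes, no covariate), with Benjamini-Hochberg adjustment and a threshold of 0.05. Adjusted p-values are from this fit. Changes are log2 differences, mutant minus control. The steps were tested on simulated data. The number of arrays limits the precision.

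The members, the lists, the roles and the rule for named genes were chosen with earlier results of these data known. The rule took all members, and per list up to 4 genes past the threshold by size or else the 2 with the smallest p, and Tgfbr1. The globin genes, Meis1, Nfe2 and Thbs1 were named outside it. Alternatives were the replicate block, other probe set choices, a filter on dim genes, other normalizations and variance models, array weights, another threshold and leaving out each array.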

Additional observations from a re-analysis of the deposited data

Results flagged for a closer look

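In groups of 4, an array counts as far from the others when its gap to the nearest, as a share of the group's range, is above Dixon's 95% critical value, which chance alone gives in about 1 in 20 groups. Of 96 groups looked at, 5 met this. Itga2b read 8.86 in mutant 3, above the other 3 mutants, and 8.65 in control 1, below the other 3 controls. Gp5 read 6.41 and Gfi1b 6.98 in control 1, each below the other 3 controls. Cd36 read 6.25 in mutant 1, above the other 3 mutants. Control 1 was the low array in 3 of these 4 readings of members. The number of groups that met the rule was near the share that chance alone gives, so nothing is read from this.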

How the results depend on the processing

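The directions of Pf4, Ppbp, Tubb1 and Rgs18 held in all 17 alternatives that measured them, and Rgs18 was not measured among genes above the median level. Their groups did not overlap, so leaving out or weighting arrays could not reverse a direction. Several other alternatives used the same values and gave the same differences. The held directions are therefore no check of these 4 members. The replicate block left the same 4 members called. Members lower at the threshold numbered 4, but 2 after quantile normalization (Rgs18 and Tubb1), 9 with array weights, and 0 to 6 when an array was left out. The array weights were highest for control 3, at 2.80, and lowest for mutant 3, at 0.108. Members higher numbered 0, but 1 with array weights (P2ry12) and 0 to 1 with an array left out. Their median of -0.21 became -0.43 over the 9 members above the median level, and -0.27 to -0.17 with an array left out. Members lower without overlap numbered 6, but 10 without mutant 3 and 9 on any probe set, both chosen after seeing the data. Over all genes, 238 were lower and 152 higher. The lower count was 141 with all probe sets kept apart, 369 with a mean-variance trend, 727 with array weights, 432 at an adjusted p under 0.1 and 40 to 357 with an array left out. The higher count was 92 above the median level, 279 after quantile normalization, 629 with array weights, 232 at 0.1 and 60 to 328 with an array left out. In the related lists, 4 fell and 3 rose. The falls numbered 1 with the replicate block, 2 over mean probe sets, 1 with all probe sets kept apart, 2 with median centring, 11 with array weights, 8 at 0.1 and 0 to 5 with an array left out. The rises numbered 6 after quantile normalization, 7 with array weights and 3 to 5 with an array left out. Tgfbr1, higher in mutants, passed with the mean-variance trend alone (limma adjusted p = 0.0282, against 0.49 at most over the alternatives). The cause of these shifts was not tested. Same-numbered arrays deviated together at correlations of 0.03, 0.00, -0.12 and 0.41, and the highest between arrays of different number was 0.28. Low correlations cannot exclude a shared litter or batch, and the labels do not say whether the numbers pair the samples. With all probe sets kept apart, more tests share the adjustment.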
